A study of Mus musculus with 8 samples.

Results

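The Cyp4a cluster on mouse chromosome 4 holds genes of the cytochrome P450 4A family, and 6 of them are described here: Cyp4a12a, Cyp4a12b, Cyp4a14, Cyp4a10, Cyp4a31 and Cyp4a32. Their members in the data were the methylation levels listed inside each gene's RefSeq span with 2 kb added on either side, which gave 1604 cytosine positions of 30729668 on the placed chromosomes read. Cyp4a12a had 402 positions, Cyp4a12b 302, Cyp4a14 108, Cyp4a10 160, Cyp4a31 218 and Cyp4a32 414. All 6 spans were among the 14660 protein-coding gene spans that could be tested.

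CYP4A enzymes place a hydroxyl group on the terminal carbon of medium- and long-chain fatty acids. This is the entry step of omega-oxidation, a side route of fatty acid breakdown that alcohol and aldehyde dehydrogenases complete and that feeds dicarboxylic acids to peroxisomes. In liver some of the genes, Cyp4a10 and Cyp4a14 above all, are classical targets of PPAR-alpha. This nuclear receptor senses fatty acids and is activated by fasting and by fibrate drugs.

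The study sequenced bisulfite-treated DNA of whole liver from male mice of the inbred strain C57BL/6J. In this assay the share of unconverted cytosines at a CpG gives its methylation level. The mice were bought at 8 weeks of age and kept for 28 weeks on a normal diet, or on a diet rich in fat, cholesterol and fructose that produces nonalcoholic steatohepatitis (NASH). There were 4 libraries titled NASH and 4 titled WT, the latter in columns named ND for normal diet and called ND here; all 8 carry a wild-type genotype. The treatment field of the labels is the reverse of the titles, and if it were correct, each direction below would turn round.

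Levels averaged 71.5% ± 0.584 in NASH and 71.9% ± 0.516 in ND over the whole table (SD, n = 4 libraries here and below). The table gives no read numbers, so the depth behind a level is unknown. Exact zeros, which can stand for positions without reads, made up 12.3% to 13.0% of levels in NASH and 12.8% to 13.1% in ND. Since the labels do not tie each library to a mouse of its own, p-values measure the spread between libraries, which may be technical. In whole liver, a change in the mix of cell types and a change of methylation within a cell type cannot be told apart. Members of the cluster are near-identical copies in places, so reads may have been shared between them, which was not tested.

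The sequence just upstream of Cyp4a32, the gene with the cluster's 1 called span, is shown because no other member had a promoter entry. It is taken from RefSeq, build GRCm38.p6 (the assembly of mm10), chr4:115600688-115600937, plus strand, with the 3 CpGs in capitals:

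Cyp4a32: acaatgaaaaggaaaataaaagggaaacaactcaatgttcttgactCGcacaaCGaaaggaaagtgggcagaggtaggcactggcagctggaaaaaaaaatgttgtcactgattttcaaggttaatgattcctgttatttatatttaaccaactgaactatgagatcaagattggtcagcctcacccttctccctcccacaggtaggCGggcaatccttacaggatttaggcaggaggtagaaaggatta

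This stretch of 250 bases had a GC content of 41.6%, and its CpGs lay at -204, -197 and -43 from the start of that RefSeq promoter entry, which lies 11 bases inside the gene's span as given below. Over 32851 promoter entries the median was 6 CpGs, and 37.8% of entries had as many as Cyp4a32 or fewer. From the CpG at -204 to that at -43, mean levels over both strands were 31.2% ± 9.49, 32.9% ± 11.5 and 44.01% ± 13.6 in ND. In NASH the same CpGs stood at 38.4% ± 9.34, 37.8% ± 8.47 and 39.3% ± 13.1, and the libraries of the groups overlapped at each of them. The hexamer that many nuclear receptors bind, AGGTCA, searched on both strands, was not found in this stretch and was found in 14.0% of all entries. Its direct repeat with 1 spacer base, AGGTCANAGGTCA, the form that PPAR-alpha binds with RXR, had 0 matches in the Cyp4a32 stretch and was found in 0.0335% of entries. Only the motifs as written were counted, so the 0 does not show that a PPAR-alpha site is absent.

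Of the 6 spans, Cyp4a32 alone passed the test, and it was higher in NASH. With limma and Benjamini-Hochberg adjustment over all spans, 5.82% of all spans were called higher and 2.84% lower (8.66% in all), against which 1 of 6 higher and 0 lower are too few to set the cluster apart. At an unadjusted p under 0.05 there was 1 of 6, against 24.2% of all spans. The 5 other spans differed by -0.597 to 2.28 percentage points and did not pass. Levels were high everywhere, with ND means from 75.4% to 82.3% against a median of 67.5% over all spans.

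**Figure D1:**
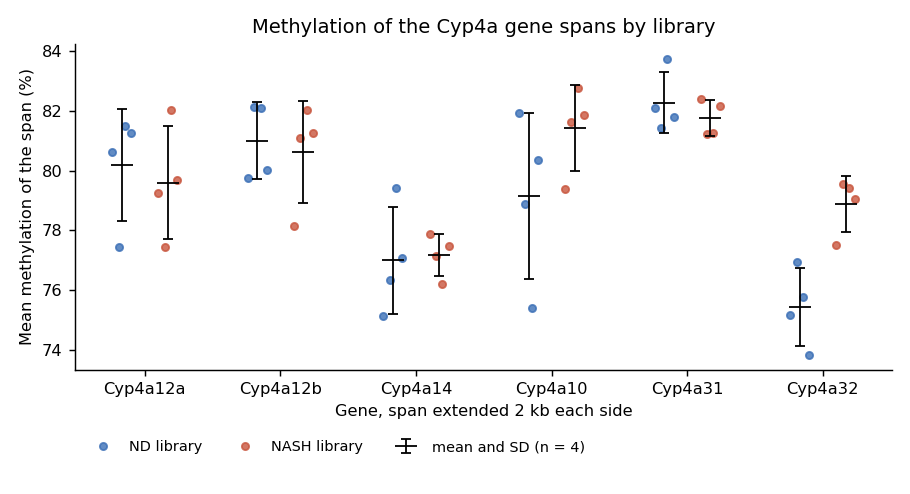
Mean methylation of each Cyp4a span (vertical axis, percent) for the 4 NASH and 4 ND libraries; points are libraries, with the group mean and SD, and the axis does not start at 0. The groups separate at Cyp4a32, where NASH lies between 77.5% and 79.5% and ND between 73.8% and 76.96%, and overlap at the 5 other genes.

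Cyp4a12a and Cyp4a12b are the androgen-dependent, male-predominant members in mouse, and Cyp4a12a is a main source of the vasoactive arachidonic acid metabolite made by omega-hydroxylation. Cyp4a12a (chr4:115299046-115332815, 33.8 kb) was at 79.2%, 77.4%, 82.0% and 79.7% in NASH libraries 1 to 4 and at 80.6%, 77.4%, 81.5% and 81.3% in ND libraries 1 to 4. The groups overlapped, and the means of 80.2% ± 1.88 in ND and 79.6% ± 1.89 in NASH differed by -0.597 points (SE 1.17, limma adjusted p = 0.805). Cyp4a12b (chr4:115411624-115439034, 27.4 kb) was at 78.2%, 81.1%, 82.0% and 81.3% in NASH and at 79.7%, 82.2%, 82.1% and 80.03% in ND. These groups overlapped as well, with 81.0% ± 1.29 in ND, 80.6% ± 1.70 in NASH and a difference of -0.365 points (SE 0.957, limma adjusted p = 0.857).

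Cyp4a10 and Cyp4a14 are the members best known for induction through PPAR-alpha in mouse liver. Cyp4a14 (chr4:115486200-115496158, 10 kb), the shortest and the sparsest in CpGs, was at 77.9%, 77.1%, 76.2% and 77.5% in NASH and at 75.2%, 76.3%, 79.4% and 77.1% in ND. The NASH libraries lay inside the ND range, and the difference was 0.185 points (SE 0.873, limma adjusted p = 0.922). Cyp4a10 (chr4:115518287-115533649, 15.4 kb) was at 79.4%, 81.6%, 82.8% and 81.9% in NASH and at 81.9%, 78.9%, 75.4% and 80.4% in ND. ND library 3 was the lowest and the groups overlapped, and 79.1% ± 2.78 in ND against 81.4% ± 1.44 in NASH gave 2.28 points (SE 1.36, limma adjusted p = 0.354). Without ND library 3 the difference was 1.03 points, and with every zero left out it was 0.0942 points.

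Cyp4a31 and Cyp4a32 are close relatives of Cyp4a10 at the far end of the cluster and are less studied. Cyp4a31 (chr4:115563627-115579015, 15.4 kb) was at 82.4%, 81.2%, 81.3% and 82.2% in NASH and at 82.1%, 81.4%, 83.8% and 81.8% in ND. It was the highest of the 6 in ND, and its difference of -0.502 points (SE 0.596) did not pass (limma adjusted p = 0.663). Cyp4a32 (chr4:115600927-115622507, 21.6 kb) was at 77.5%, 79.5%, 79.4% and 79.04% in NASH and at 75.2%, 76.96%, 75.8% and 73.8% in ND. Every NASH library lay above every ND library, which held for 9.62% of all spans. The means were 75.4% ± 1.30 in ND and 78.9% ± 0.945 in NASH, a rise of 3.44 points (SE 0.745, limma adjusted p = 0.0264), close to the median of 3.36 points over all called spans.

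The Cyp4a32 rise came with an uneven spread of CpGs along the gene. A run of 4 windows of 1000 bases, chr4:115603001-115607000 and inside the gene, held 212 of its 414 positions (51.2%). In this dense stretch the libraries were at 74.2%, 78.7%, 78.9% and 77.05% in NASH and at 70.2%, 72.9%, 71.7% and 68.1% in ND, so that 70.7% ± 2.07 in ND stood against 77.2% ± 2.19 in NASH, 6.48 points higher. The 4 windows taken singly differed by 0.747, 10.55, 4.61 and 8.10 points, each with overlapping groups and none called. In the window at chr4:115604001-115605000 NASH libraries lay between 37.3% and 88.1% and ND libraries between 23.7% and 67.6%. In the remaining positions ND was at 80.4% ± 0.599 and NASH at 80.6% ± 0.525, a difference of 0.257 points (limma adjusted p = 0.804 when windows of 30 or more positions were left out of all spans).

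Levels in the dense stretch were mostly exactly 0 or 100 (76.5% of them, against 44.7% elsewhere in the span). Exact zeros were 16.6% of levels there in NASH and 21.6% in ND, against 1.61% and 1.86% in the rest of the span. Without doubtful zeros, those among highly methylated neighbours, the Cyp4a32 difference was 3.68 points (limma adjusted p = 0.0704), and without any zero it was 1.29 points (adjusted p = 0.219). The part of zeros in the result was not tested further. The call also ended without NASH library 2 (limma adjusted p = 0.0670), 3 (0.0558) or 4 (0.0746), or without ND library 1 (0.0769), 3 (0.0562) or 4 (0.0532), and it held without NASH library 1 (0.0248) or ND library 2 (0.0213). The difference stayed between 2.91 and 3.95 points in these 8 fits.

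**Figure D2:**
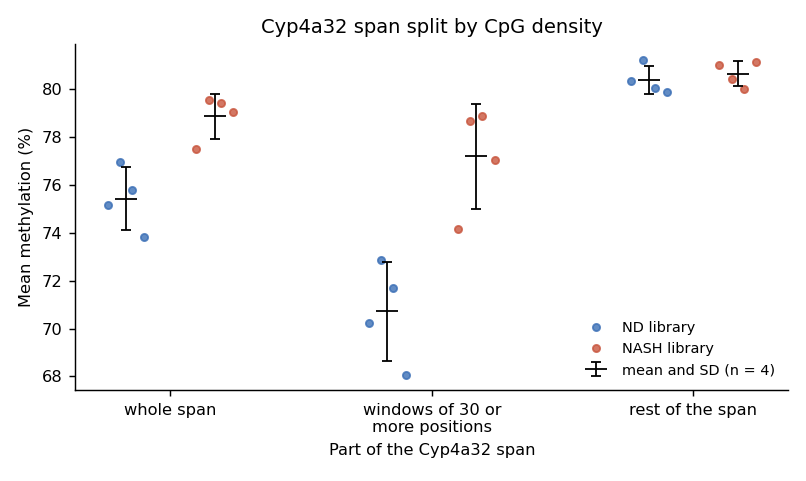
Mean methylation (percent) by library for the whole Cyp4a32 span, its windows of 30 or more positions and the rest of the span; points are the 4 NASH and 4 ND libraries, with the group mean and SD, and the axis does not start at 0. The groups are 6.48 points apart in the dense windows and 0.257 points apart in the rest.

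Whether the members differed from each other in how far NASH and ND stood apart was tested for the 15 pairs, with exact two-sided permutation tests of the within-library difference of span levels. After adjustment 0 of the 15 pairs passed, and 1 had an unadjusted exact p under 0.05. That pair was Cyp4a12b against Cyp4a32, at -3.81 points, with the smallest p that the 70 assignments allow (exact p = 0.0286, adjusted p = 0.429). With so few libraries at least 9 of the 15 pairs would have to reach that smallest p for any to pass, so this count says nothing about whether members differed. In ND the order of levels from low to high was Cyp4a32, Cyp4a14, Cyp4a10, Cyp4a12a, Cyp4a12b and Cyp4a31, and adjacent genes in this order differed by less than the larger of their SDs.

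CpG methylation at a promoter is often used as a readout of its state, which was not tested here. RefSeq as held here gave a strand for Cyp4a32 only, whose start is at its low-coordinate end, so both ends of each gene were tested, from 1000 bases outside to 500 bases inside. Of 12 ends, 10 had the 6 positions needed, the exceptions being the low ends of Cyp4a12b and Cyp4a14. Limma called 0 of the 10, against 0.306% of all ends, and in 0 of the 10 were the groups without overlap, against 8.36% of all ends. At an unadjusted p under 0.05 there was 1 of 10, the low end of Cyp4a10, against 12.5% of all ends.

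The low end of Cyp4a10 (chr4:115517287-115518787, 14 positions) was at 41.05%, 60.4%, 47.5% and 57.02% in NASH and at 41.9%, 48.3%, 31.98% and 40.2% in ND. NASH libraries 2 and 4 were high, and the groups overlapped. The mean went from 40.6% ± 6.73 in ND to 51.5% ± 8.84 in NASH, 10.9 points higher (SE 4.78), which did not pass (limma adjusted p = 0.392). The start of Cyp4a32 (chr4:115599927-115601427, 24 positions) was at 50.2%, 48.9%, 44.9% and 49.3% in NASH and at 38.6%, 54.3%, 34.7% and 36.97% in ND. ND library 2 stood above all NASH libraries and the other ND libraries below them, and the difference of 7.16 points (SE 4.08) did not pass (limma adjusted p = 0.518, and 11.5 points with adjusted p = 0.133 without ND library 2).

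At Cyp4a31 the ends differed in opposite directions, and neither passed. Its low end was 3.56 points higher in NASH (76.3% ± 2.69, limma adjusted p = 0.595) and its high end was at 93.1% ± 2.62 in ND and 86.4% ± 7.24 in NASH, a difference of -6.72 points (adjusted p = 0.432). NASH library 2, at 75.9%, was the lowest at the high end, and the difference was -3.23 points without it and -2.55 points without doubtful zeros. The low end was 1.96 points higher without ND library 3. With ends taken as 2000 bases on both sides, the Cyp4a31 high end was called, at -5.91 points (limma adjusted p = 0.0232). It was 1 of 12 member ends tested at that size. The share called over all ends of that size was not counted, so this call does not set the cluster apart. Among the other ends, differences ran from -5.71 points at the Cyp4a12a high end to 1.88 points at the Cyp4a12a low end, and none passed.

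Inside the spans, 115 windows of 1000 bases could be tested, and limma called 0 of them, as it called 0 of 1597867 windows in all (0%). At an unadjusted p under 0.05 there were 15 member windows (13.0%), against 10.6% of all windows. NASH was higher in 57 of the 115 and lower in 58. The libraries did not overlap in 4 windows that were higher in NASH (3.48%, against 2.81% of all windows) and in 5 that were lower (4.35%, against 3.74%).

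**Figure D3:**
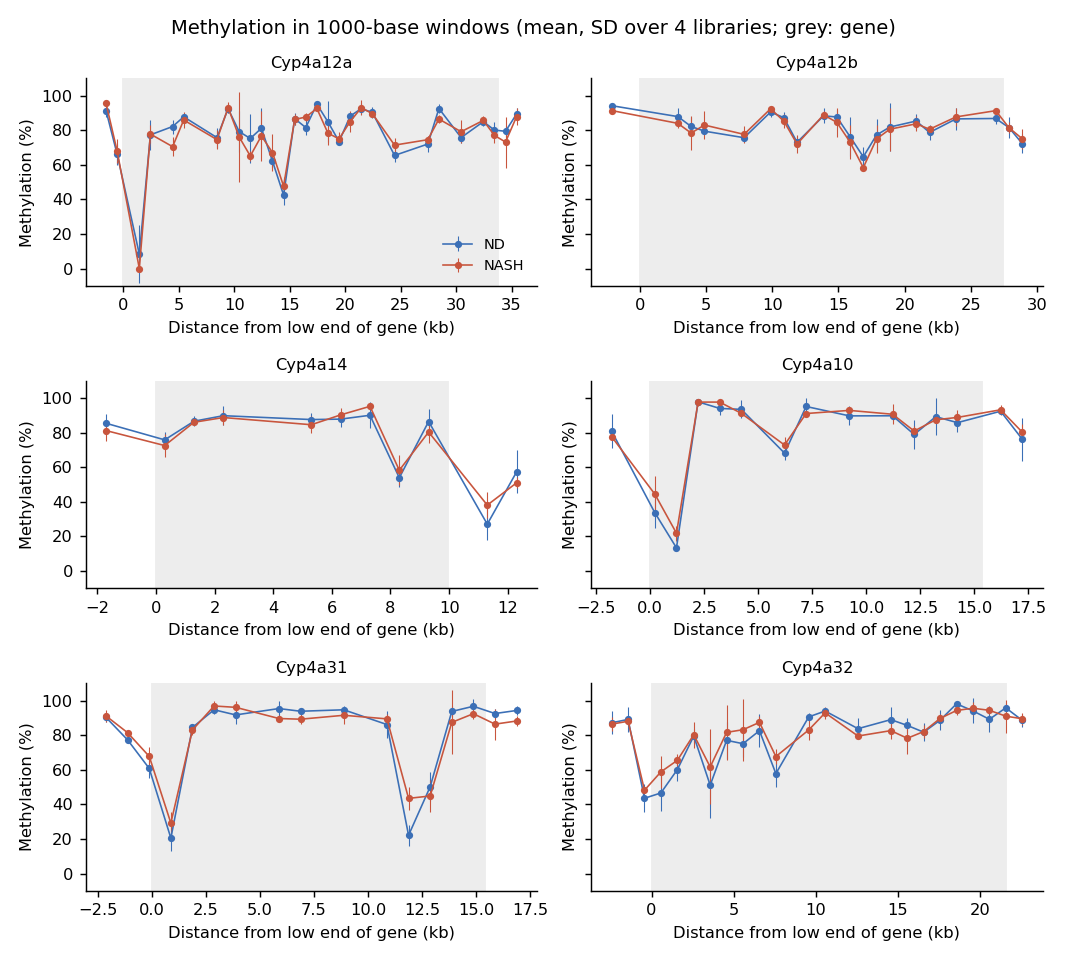
Methylation (percent) in 1000-base windows along the 6 Cyp4a genes, plotted by distance from the low-coordinate end in kb; points are group means and bars SDs over 4 libraries, with the gene in grey. Most windows lie above 50%, and the dips below it include windows near the low ends of Cyp4a10, Cyp4a31 and Cyp4a32 and an intragenic window of Cyp4a31.

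The smallest p in the cluster belonged to a window inside Cyp4a31, chr4:115575001-115576000, 3.5 kb inside the high end of the gene. It was at 43.8%, 35.4%, 43.4% and 51.3% in NASH and at 20.8%, 16.6%, 30.7% and 20.2% in ND. Every NASH library lay above every ND library, and the mean went from 22.1% ± 6.04 to 43.5% ± 6.47. The difference of 21.4 points (SE 4.02, unadjusted p = 2.03e-04) did not pass over all windows (limma adjusted p = 0.0986, and 0.115 to 0.230 when single libraries were left out). With every zero left out it was 17.4 points (adjusted p = 0.0848).

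The window held 10 cytosines, the 2 strands of 5 CpGs, and NASH was higher on average at all 10, by 10.95 to 28.3 points. At 3 of them the libraries did not overlap, with NASH higher, which held for 0.948% of all positions. The window was picked for its smallest p, so its own cytosines add no separate support. The cytosine at chr4:115575342 was at 33.3%, 50%, 44.4% and 40% in NASH and at 25%, 14.3%, 15.4% and 0% in ND. The one at chr4:115575388 was at 25%, 27.3%, 50% and 40% in NASH and at 0%, 0%, 14.3% and 15.4% in ND. At chr4:115575972 the 4 NASH libraries read 50%, 50%, 50% and 44.4% and the ND libraries 25%, 37.5%, 25% and 28.6%. Positions are as listed in the table, which lie 1 base above RefSeq coordinates.

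**Figure D4:**
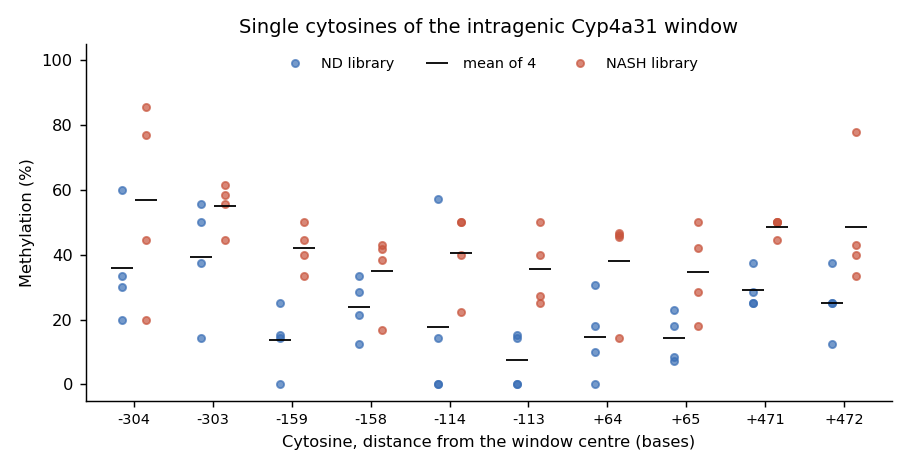
Methylation (percent) of the 10 cytosines in the intragenic Cyp4a31 window, by distance from the window centre in bases; points are libraries and short lines group means. All 10 have a higher NASH mean, with the libraries apart at 3, in a window picked for its smallest p.

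The window with the smallest p in each of the other genes also failed adjustment. In Cyp4a10 it lay 1.2 kb from the low end (chr4:115519001-115520000), at 21.9%, 21.05%, 27.4% and 17.2% in NASH and 11.4%, 12.4%, 16.3% and 13.5% in ND. The NASH libraries were all above the ND libraries, with a difference of 8.46 points (limma adjusted p = 0.250). In Cyp4a14 it lay 1.3 kb beyond the high end (chr4:115497001-115498000), at 27.05%, 41.5%, 41.1% and 42.96% in NASH and 18.4%, 37.3%, 32.99% and 19.9% in ND, where ND libraries 2 and 3 reached into the NASH range (11.02 points, limma adjusted p = 0.463). In Cyp4a12b the NASH libraries were all higher at chr4:115438001-115439000, by 4.51 points (limma adjusted p = 0.433).

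Windows lower in NASH included 3 of high methylation. In Cyp4a12a the window at chr4:115303001-115304000 went from 82.2% ± 4.05 in ND to 70.5% ± 5.49 in NASH with no overlap (-11.6 points, limma adjusted p = 0.238). In Cyp4a32 the window at chr4:115619001-115620000 went from 98.2% ± 1.36 to 94.3% ± 2.57 (-3.85 points, limma adjusted p = 0.353). In Cyp4a31 the window just beyond the high end, chr4:115580001-115581000 with 26 positions, was at 86.9%, 88.5%, 91.96% and 85.4% in NASH and at 91.97%, 92.99%, 97.7% and 94.6% in ND. These libraries did not overlap (-6.09 points, limma adjusted p = 0.266).

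The windows of lowest methylation, under 50% over all 8 libraries, were 9 of the 115. The member closest to this limit on the inside stood at 47.5%, the closest outside at 52.7%. Of these 9, NASH was higher in 7, with a median difference of 8.46 points. Among all 116810 windows under 50%, 58.2% were higher in NASH and the median difference was 0.867 points. Of the 106 other member windows, 47.2% were higher, with a median of -0.519 points, against 40.5% and -0.760 points over all other windows. No test was made of these counts, since windows of one gene share their libraries.

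At the low end of Cyp4a10 the window 0.2 kb inside was at 33.7% in ND and 44.5% in NASH, beside the window 1.2 kb inside described above. The low-methylated window of Cyp4a31 at 0.9 kb went from 20.5% ± 7.30 to 29.2% ± 6.41, and that of Cyp4a32 around its start from 43.5% to 48.2%. Cyp4a12a had a window 14.5 kb inside at 42.5% in ND and 47.7% in NASH. The exceptions were a Cyp4a31 window at 12.9 kb, next to the intragenic one, at 50.2% in ND and 44.85% in NASH, and a Cyp4a12a window at 1.5 kb with 6 positions, listed at 0% in 7 libraries and at 33.3% in ND library 2.

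**Figure D5:**
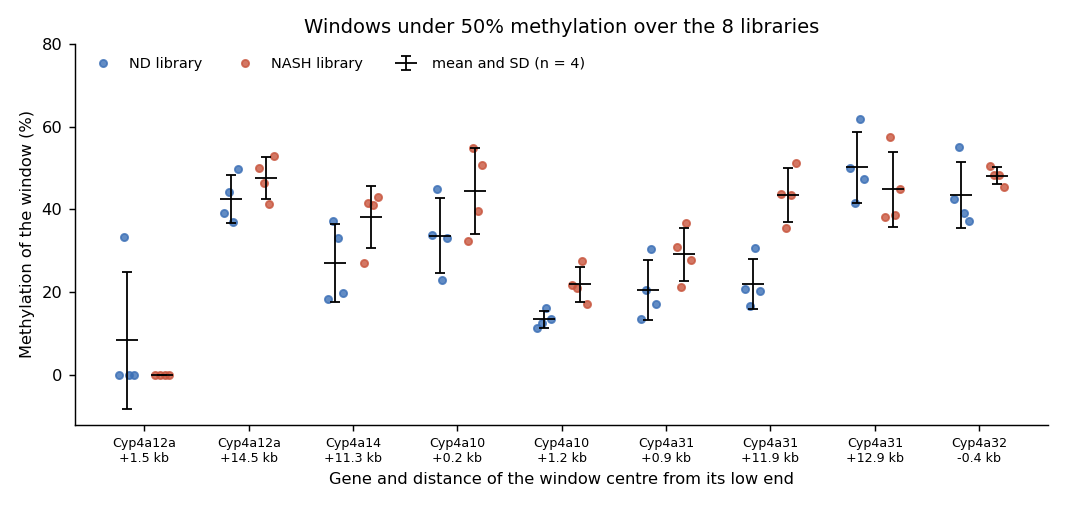
Methylation (percent) of the 9 Cyp4a windows under 50% over the 8 libraries, named by gene and by the distance of the window centre from the low-coordinate end in kb; points are libraries, with the group mean and SD. NASH means are higher in 7 and lower in 2.

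Of the 1604 single positions, 732 were higher and 752 lower in NASH on average. The libraries did not overlap at 15 higher positions (0.935%, against 0.948% of all positions) and at 12 lower ones (0.748%, against 1.09%). The difference between the cluster and the rest of the table was not tested.

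Around the cluster lie related P450 genes and unrelated neighbours. Of 15 listed, 11 were tested and 0 were called by limma (2 at an unadjusted p under 0.05, against 24.2% of all spans), with a median difference of -0.360 points against -0.270 over all spans. The P450 neighbours Cyp4a29 and Cyp4a30b, at 82.1% and 82.3% in ND, were at 81.05% and 81.6% in NASH. The smallest p-values among the neighbours belonged to Mob3c, a kinase regulator, from 53.5% ± 1.09 to 51.1% in NASH (limma adjusted p = 0.0827), and Cyp4x1, an orphan P450, from 62.6% ± 0.250 to 63.9% ± 0.692 (adjusted p = 0.124).

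The other CYP4 families, whose CYP4F enzymes act mainly on leukotrienes and very long fatty acids, had 8 of 10 genes tested. Of these limma called 2 higher and 1 lower, against 5.82% and 2.84% of all spans. The median was -0.428 points, against -0.270 over all spans. Cyp4f13 rose from 64.2% to 67.5% (adjusted p = 0.0161), Cyp4f14 rose from 64.2% to 68.1% (adjusted p = 0.0490) and Cyp4f17 fell from 72.9% to 70.1% (adjusted p = 0.0200).

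Genes that share the PPAR-alpha program or the later steps of omega-oxidation had 25 of 28 tested. Limma called 13 of them higher and 0 lower, against 5.82% and 2.84% of all spans. Their median was 3.17 points, against -0.270 over all spans. Adh1, the alcohol dehydrogenase that oxidises hydroxy fatty acids, rose from 43.3% to 56.998% (limma adjusted p = 0.00111). Rxra, the partner receptor of PPAR-alpha, rose from 31.97% to 40.3% (adjusted p = 0.00126). Abcd3, a peroxisomal fatty acid transporter, rose from 55.6% to 61.5% (adjusted p = 0.00285). The 6 Cyp4a spans, with 1 called and a median of -0.0898 points, are given side by side with this list, and the difference between them was not tested.

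Markers of liver cell types were examined in the same libraries, where limma called 5.82% of all spans higher and 2.84% lower. Hepatocyte markers were called higher at 7 of 8 tested spans, with a median of 11.4 points. Neutrophil markers were called lower at 3 of 8 (median -3.05 points) and macrophage markers at 2 of 8 (median -1.58 points). Stellate and cholangiocyte markers were called lower at 1 of 6 each (medians -1.93 and -0.933 points). Lymphocyte and endothelial markers had 0 called of 3 and 4, with medians of -2.10 and -1.29 points. Of each, 2 had an unadjusted limma p under 0.05 (24.2% of all spans). Called or not, the NASH mean was higher at 8 hepatocyte, 2 neutrophil, 1 macrophage, 1 stellate, 2 cholangiocyte, 0 lymphocyte and 1 endothelial spans. Over all spans it was higher at 6005 of 14660. Lists with 1 call or none are too short to be set apart from all spans. The part of the marker lists in the Cyp4a values was not tested.

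Over the 8 libraries, the genes whose span levels followed the mean of the 6 Cyp4a spans most closely included Ftcd (Pearson r = 0.981) and Ndufaf7 (r = 0.962). They were among the 3 highest of all tested spans, chosen for that, and are given as a description.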

How the data were processed

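The deposited table gives, per the file headers, the percent methylation of each CpG cytosine, with each strand as its own entry, in 8 libraries. Per the submitters' processing notes, FastQC and the mm10 build were used; for the aligner and the caller, nothing is given in the sources used here. Table positions lay 1 above RefSeq (GRCm38.p6) coordinates: all 55105 positions inside chromosome 4 promoter entries fell on a CpG only after subtracting 1. Spans, ends and windows are printed as tested.

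Of the table, 15 placed chromosomes were read, chromosome 5 up to 117098872. The table as read here held no positions placed on chromosomes 6 to 9, X or Y. The 326824 positions on 85 contigs were not analysed, and 1 incomplete line was left out.

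A region's level was the unweighted mean of its positions (at least 6) in each library. Gene spans, gene ends and 1000-base windows were each fitted over all regions with limma 3.58.1 in R 4.3.3 (prior variance trended on level), NASH against ND, and called at a Benjamini-Hochberg adjusted p under 0.05. Regions with one value in all libraries (57 spans, 371 ends, 11976 windows) were left out after the data were seen, since they distorted the prior variance. Pairs of members were compared by exact permutation. Only the fit of gene spans was tested on simulated data, with shifts larger than the Cyp4a32 difference. Python 3.11.15, pandas 2.3.3 and numpy 2.4.6 prepared the tables. A doubtful zero is a 0 whose 10 nearest positions in the library have a median of 50% or more.

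The 6 members and the gene lists were chosen with earlier results of these data known. Named were all members, up to 4 called genes of each list by smallest adjusted p (2 by smallest p where none was called), the window of smallest p in each member and the 3 genes most correlated with the members' mean; some items that this rule names are not reported here. The lower windows of Cyp4a31, the windows under 50% and the dense stretch of Cyp4a32 were described after their values were seen. Alternatives covered zeros, scale, minimum positions, prior, region size, a replicate block and single libraries left out.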

Additional observations from a re-analysis of the deposited data

Results flagged for a closer look

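In 2 of 44 groups of 4 libraries examined for a value far from the rest, the gap to the nearest library, as a share of the group's range, exceeded Dixon's critical value; chance gives about 1 in 20. At the high end of Cyp4a10, NASH library 3 was at 95.9% while the other NASH libraries were between 89.7% and 90.3% (gap 0.904 of the range). In the Cyp4a14 window beyond its high end, NASH library 1 was at 27.05% while the others were between 41.1% and 42.96% (0.884 of the range).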

How the results depend on the processing

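The count of called member spans, 1 as reported, was 0 without doubtful zeros, without any zero and without windows of 30 or more positions (the last chosen after seeing the data), and 0 to 1 when single libraries were left out. The count of called ends, 0 as reported, was 1 of 12 with ends of 2000 bases on both sides, where the share over all ends was not counted. Same-numbered libraries were not paired: their deviations correlated at -0.0304, 0.000408, 0.113 and -0.00581, and 1 of 4 correlated best with its own number. With the replicate block, the Cyp4a32 span kept its call (limma adjusted p = 0.0420). Small differences changed sign. The Cyp4a14 span was at -0.192 points without doubtful zeros, -0.362 without any zero, -0.870 not extended and -0.718 extended by 5 kb. The Cyp4a31 span was at 0.269 without doubtful zeros and 0.439 not extended. The Cyp4a32 high end was at 0.869 without doubtful zeros or any zero and 1.33 with 2000 bases, and the Cyp4a14 high end at 3.64 with 2000 bases. With single libraries left out, spans ranged from -1.52 to 0.125 (Cyp4a12a), -0.825 to 0.463 (Cyp4a12b) and -0.430 to 0.991 (Cyp4a14), and ends from -1.15 to 0.910 (Cyp4a10 high), -1.44 to 4.16 (Cyp4a12a low), -0.815 to 2.51 (Cyp4a12b high) and -3.06 to 1.11 (Cyp4a32 high). Beyond the zeros and window density described for Cyp4a32, the cause was not tested. No read numbers are given, so depth cannot be weighed.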
